A study of Rattus norvegicus with 13 samples.

Results

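The genes described here are hypothalamic factors that govern the anterior pituitary and the receptors that sit beside them. They are Trh (thyrotropin-releasing hormone), Ghrh (growth hormone-releasing hormone), Gnrh1 (gonadotropin-releasing hormone), Sst (somatostatin), the somatostatin receptors Sstr1, Sstr2, Sstr3 and Sstr4, and Ghr (the growth hormone receptor). They were chosen by symbol for these roles, and each of the 9 matched 1 row of the 17366 in the table. Messenger RNA was sequenced from the whole hypothalamus of 6 rats on a high-fructose diet (fructose rats, 55% fructose) and 7 rats on Lab Rodent Diet 5001 (chow rats, 0.30% fructose). Either diet was given from postnatal day 25. All rats were fasted from day 79, and on day 80 were injected intraperitoneally with glucose (2 g per kg) or saline and killed 1 h later. The sources used here do not give the injection, sex, cage or batch of each sequenced rat. The fructose diet was a different product (Research diets D05111802), so that fructose content and other differences between the diets cannot be told apart.

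Releasing factors are peptides that neurons of the hypothalamus secrete into the portal blood of the pituitary stalk. TRH drives release of thyroid-stimulating hormone, GHRH drives release of growth hormone, and GnRH drives release of the gonadotropins. Somatostatin acts against GHRH at the pituitary, and growth hormone in turn feeds back on the hypothalamus through its receptor. The somatostatin receptors are Gi-coupled, lower cyclic AMP and open inwardly rectifying potassium channels. In the brain somatostatin is also made by local inhibitory neurons, so that its transcript in whole tissue is not only that of the neurons that project to the portal vessels.

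None of the 9 genes passed the test between diets. A change was called at an adjusted p under 0.05 in limma, a linear model fitted across all genes, on log2(FPKM + 0.5), where FPKM counts fragments relative to transcript length and library size. All 9 had a mean of at least 0.5 FPKM and were among the 11837 genes tested, of which 3.94% were called, 1.66% higher and 2.27% lower on fructose. By limma 0 of the 9 genes were called. At an unadjusted p under 0.05 there was 1, Sstr3, beside 19.2% of all genes tested, and the exact permutation test over rats gave the same count unadjusted, beside 18.8% of all genes tested. After adjustment the permutation test called no gene of the table, and its lowest adjusted p over all genes was 0.0663, at the smallest p that 1716 splits can give (0.000583). The median log2 difference over the 9 genes was 0.05, beside 0.00085 over all genes tested, with 5 differences above 0 and 4 below. The diets overlapped for each of the 9 genes, and 1.61% of all genes tested did not overlap.

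**Figure D1:**
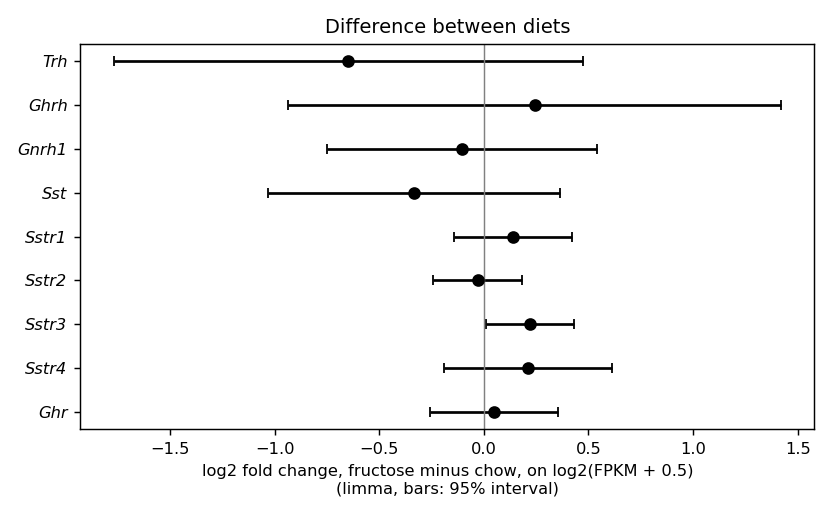
Log2 difference between diets, fructose minus chow, on log2(FPKM + 0.5) for each of the 9 genes, with 95% intervals from limma. Of the 9 intervals, that of Sstr3 lies above 0 before adjustment, from 0.01 to 0.43. Those of Trh, Ghrh, Sst and Gnrh1 are the widest.

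Their levels spanned more than 2 orders of magnitude. Over the 13 rats Sst averaged 195 ± 92.9 FPKM (SD, n = 13) and Trh 44.8 ± 34.5 FPKM, and Sst was above Trh in 13 of 13 rats. The receptors were far lower, with means of 7.08 FPKM for Sstr1, 6.65 FPKM for Sstr2, 4.93 FPKM for Sstr3, 3.72 FPKM for Ghr and 1.46 FPKM for Sstr4. The mean of Ghrh was 2.11 FPKM and that of Gnrh1 0.821 FPKM. Sstr1 was above Sstr2 in 8 of 13 rats, so that this pair had no fixed order. Sstr2 was above Sstr3, and Sstr3 above Ghr, in 13 of 13 rats, although the ranges of neighbours in the order overlapped across rats.

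**Figure D2:**
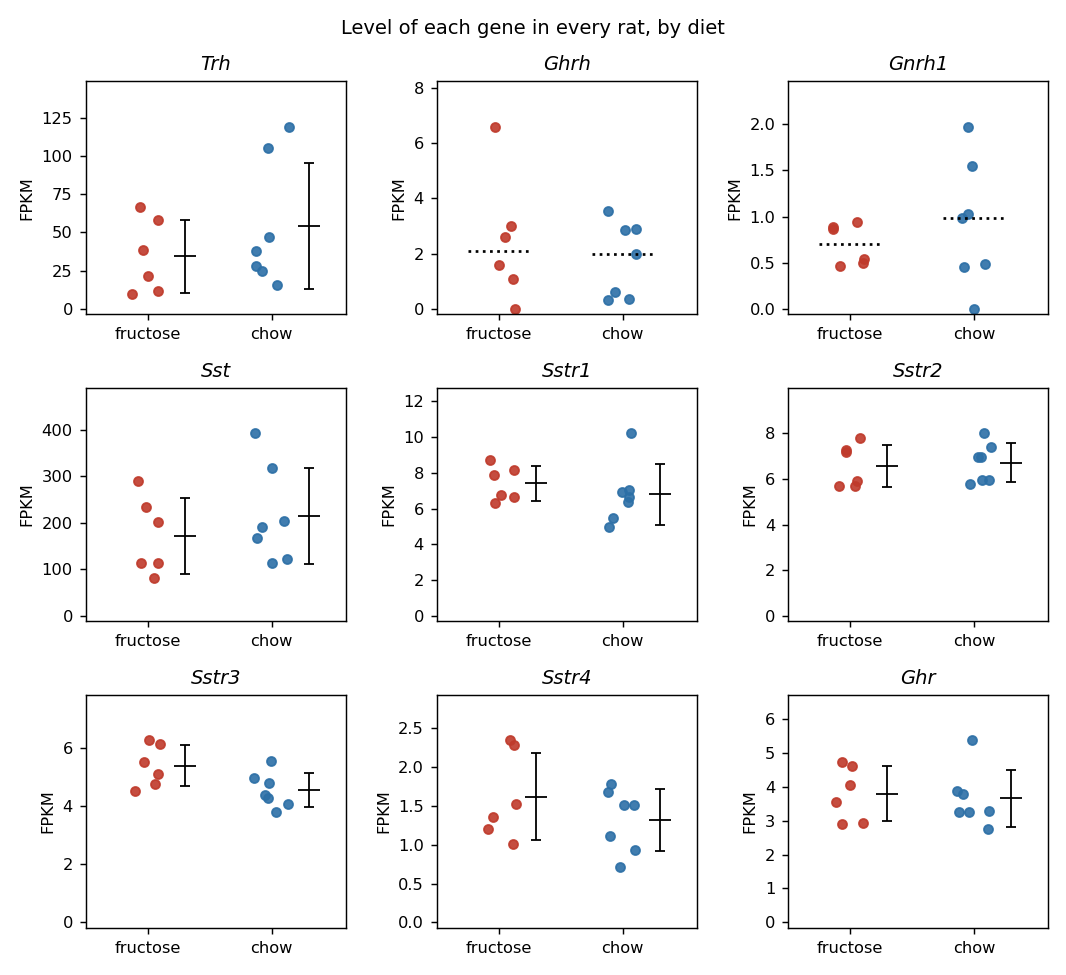
FPKM of each gene in every rat, with fructose rats in red and chow rats in blue and a separate vertical axis for each gene. Crosses with bars are the mean and SD, and dotted lines are medians for Ghrh and Gnrh1, each of which is listed at 0 in 1 rat. The diets overlap in every panel.

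Trh codes for the precursor of the peptide that starts the thyroid axis. It was at 11.8, 57.8, 21.4, 66.3, 9.76 and 38.6 FPKM in the 6 fructose rats, against 105, 28.1, 37.9, 119, 15.8, 24.5 and 46.8 FPKM in the 7 chow rats. Chow replicates 1 and 4 stood above every fructose rat, and the other 5 chow rats lay within the range of the fructose rats. Trh averaged 34.3 ± 24.0 FPKM in fructose rats (SD, n = 6) and 53.9 ± 41.2 FPKM in chow rats (SD, n = 7). The log2 difference was -0.65 ± 0.53 (SE, 95% interval -1.77 to 0.47), with an adjusted p of 0.555 in limma and an exact two-sided permutation p of 0.308. In bulk tissue, fewer cells of a type and less RNA per cell cannot be told apart.

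Sst codes for somatostatin, which inhibits growth hormone release. It was at 81.7, 234, 112, 290, 113 and 201 FPKM in fructose rats, against 317, 113, 191, 392, 123, 167 and 204 FPKM in chow rats. Here too chow replicates 1 and 4 were above every fructose rat, while the lowest value was that of fructose replicate 1. Sst averaged 172 ± 82.1 FPKM in fructose rats (SD, n = 6) and 215 ± 103 FPKM in chow rats (SD, n = 7). The log2 difference was -0.33 ± 0.33 (SE, 95% interval -1.03 to 0.37), with an adjusted p of 0.650 in limma and an exact permutation p of 0.396.

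Ghrh codes for the peptide that stimulates growth hormone release, from neurons found mainly in the arcuate nucleus. It was listed at 0, 1.09, 3.00, 6.59, 1.57 and 2.61 FPKM in fructose rats, against 3.55, 2.84, 0.601, 2.90, 0.320, 0.343 and 1.98 FPKM in chow rats. The highest and the lowest of the 13 values were both those of fructose rats, replicate 4 and replicate 1. The medians were 2.09 FPKM in fructose rats and 1.98 FPKM in chow rats. Its log2 difference was 0.24 ± 0.55 (SE, 95% interval -0.93 to 1.42, adjusted p = 0.864 in limma, exact permutation p = 0.713).

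Gnrh1 codes for the peptide at the head of the reproductive axis and is made by a small, scattered population of neurons in the preoptic area and anterior hypothalamus. It was at 0.462, 0.543, 0.495, 0.893, 0.936 and 0.866 FPKM in fructose rats, against 0, 1.55, 0.448, 1.98, 0.483, 1.03 and 0.988 FPKM in chow rats. The 4 highest values and the 0 were all those of chow rats, and the fructose rats lay between them. The medians were 0.705 FPKM in fructose rats and 0.988 FPKM in chow rats. The log2 difference was -0.11 ± 0.30 (SE, 95% interval -0.75 to 0.54, adjusted p = 0.894 in limma, exact permutation p = 0.763).

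The low FPKM values of this table come in steps, and those of Gnrh1 were few steps high. Across 651 rows above 0 in few rats, 87.2% of 3150 values lay within 0.1 of a whole multiple of the row's step, once each rat was scaled by a relative value of 1 fragment between 0.831 and 1.16. The steps were fitted to the same values. In these 651 rows the step was the row's own lowest scaled value above 0, so that value matched by construction. The share that chance would reach was not computed. For Gnrh1 the step was 0.462 FPKM, and 12 of the 12 values above 0 lay within 0.1 of a whole multiple. The multiples were 1, 1, 1, 2, 2 and 2 in fructose rats, and 0, 4, 1, 5, 1, 2 and 2 in chow rats. If a step is 1 fragment, the whole Gnrh1 signal rested on 9 fragments in fructose rats and 15 in chow rats. The Ghrh step was 0.311 FPKM, with multiples of 0 to 22 in fructose rats and 1 to 12 in chow rats, and 10 of 12 values above 0 within 0.1 of a whole number.

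Trh, Ghrh and Sst varied more between rats of the same diet than the receptors did. The SD of log2(FPKM + 0.5) within a diet was 1.10 for Trh, which was above that of 99.8% of all genes tested. It was 1.15 for Ghrh (99.8%), 0.69 for Sst (98.9%) and 0.60 for Gnrh1 (98.0%). Among the genes nearest in level, the SD was above that of 99.9% for Trh, 99.7% for Sst and 99.5% for Ghrh, but only 89.8% for Gnrh1. The ratio of the highest to the lowest fructose rat was 2.03 for Gnrh1 and 2.33 for the receptor Sstr4. Among chow rats it was 2.48 for Sstr4, while Gnrh1 ran from 0 to 1.98 FPKM and so has no ratio. Coefficients of variation of Gnrh1 were 31.6% in fructose rats and 73.7% in chow rats. The ratio of the highest to the lowest rat for Trh was 6.79 among fructose rats and 7.55 among chow rats, and for Sst it was 3.55 among fructose rats and 3.49 among chow rats. Coefficients of variation of Trh were 69.9% in fructose rats and 76.4% in chow rats. Those of Sstr2 were 14.1% in fructose rats and 12.6% in chow rats, and those of Sstr3 13.2% in fructose rats and 13.1% in chow rats. The within-diet SD of log2(FPKM + 0.5) was 0.17 for Sstr3, 0.18 for Sstr2, 0.26 for Sstr1, 0.27 for Ghr and 0.36 for Sstr4.

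Trh and Sst varied together across rats. After each diet's mean was subtracted, Pearson r of log2(FPKM + 0.5) over the 13 rats was 0.94 and Spearman rho 0.89. Over the 36 pairs among the 9 genes, this was the 1 pair called after adjustment, with a permutation p of 0.00011 for r (adjusted p = 0.00396) and 0.00048 for rho (adjusted p = 0.0173), by 100000 two-sided permutations within diets. Within fructose rats r was 0.94 (n = 6, exact permutation p = 0.0181), and within chow rats it was 0.94 (n = 7, exact permutation p = 0.00456). Without chow replicates 1 and 4, the rats farthest from the median of Trh, r was 0.90 (permutation p = 0.00305, adjusted p = 0.110), so that the pair kept its direction and no longer passed the adjusted threshold. With any 1 rat left out, r lay between 0.92 and 0.96.

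The same few rats were high for both genes and for oxytocin and vasopressin. Fructose replicates 2 and 4 and chow replicates 1 and 4 were the 4 highest rats for Trh, Sst, Oxt (oxytocin) and Avp (vasopressin). They were also the 4 highest for Dlx1, a homeobox transcription factor of inhibitory neurons. Not every such gene shared this order, as fructose replicate 2 ranked 9 from the highest for Ghrh and 7 for the transcription factor Isl1. Even so, Isl1 varied with Trh (r = 0.94) and with Sst (r = 0.91) over the 13 rats, after each diet's mean was subtracted. By the same measure Ghrh had lower coefficients, 0.56 with Oxt and 0.61 with Avp. Oxt was at 2.04, 359, 2.42, 159, 3.05 and 53.8 FPKM in fructose rats, against 718, 23.6, 93.3, 1455, 8.97, 10.01 and 110 FPKM in chow rats. Oxytocin and vasopressin are made by large neurons of the paraventricular and supraoptic nuclei, and the paraventricular nucleus also holds the TRH neurons that project to the portal vessels. Of the 11836 other genes tested, the pair most like Trh by Pearson r over the 13 rats was Oxt (r = 0.96) and Ucn3 (urocortin 3, r = 0.95), and the pair most like Sst was Dlx1 (r = 0.96) and Avp (r = 0.95). These coefficients are a description of 13 libraries, in which the genes share tissue and depth, and were given no test. How much of each hypothalamic nucleus each dissected tissue held was not tested.

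**Figure D3:**
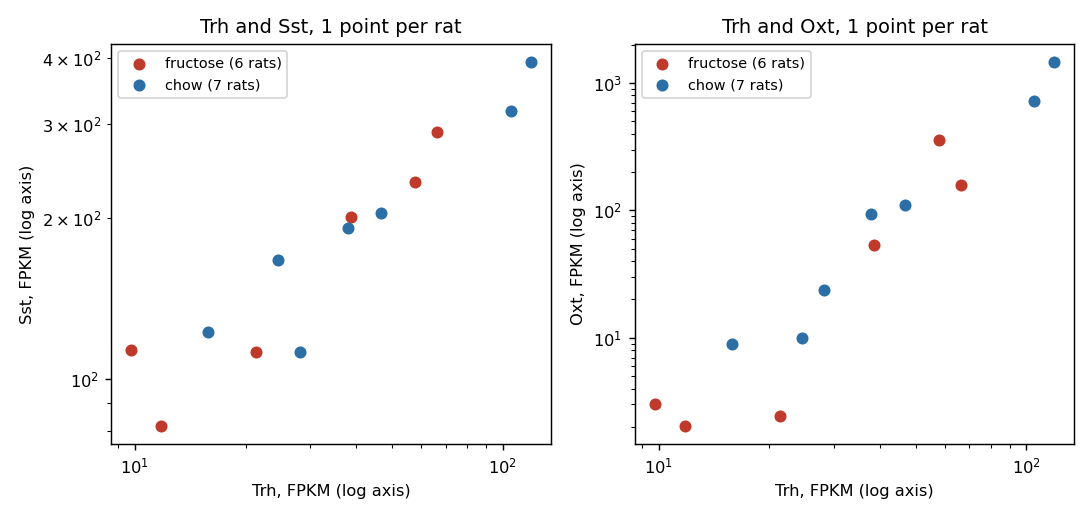
FPKM of Trh (horizontal axis) against Sst and against Oxt (vertical axes) in the 13 rats, all on log scales, with fructose rats in red and chow rats in blue. The points of both diets lie along a common rising line, and fructose replicates 2 and 4 and chow replicates 1 and 4 are at its upper end.

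The promoters of Trh and Sst are known for responding to cyclic AMP. The promoter windows were therefore searched for the cyclic AMP response element TGACGTCA, which is its own reverse complement. They were also searched for the related TGACCTCA, on either strand (reverse complement TGAGGTCA). Whether these elements have any part in how Trh and Sst varied between rats was not tested. Windows of 300 bases, from 250 before to 50 after the annotated start, were those of RefSeq on build GRCr8, which is not the build of the expression values, and 8 of the 9 genes were in that table. TGACGTCA was in 612 of 33469 windows (1.83%), among them those of Sst and Sstr2. TGACCTCA was in 889 (2.66%), among them that of Trh, where an element of this form is known as a binding site of CREB and of thyroid hormone receptors. The match begins at base 216 of the Trh window, base 253 of the Sst window and base 178 of the Sstr2 window. That is 35 bases before the annotated start for Trh and 73 before it for Sstr2, but 2 bases after it for Sst. A match is only a run of letters, and no binding was measured here. The 3 windows that hold a match are printed 5′ to 3′ on the strand of the gene, with the match in capitals. They are at chr4:126301713-126302012 (minus strand) for Trh, chr11:90461296-90461595 (plus strand) for Sst and chr10:99163103-99163402 (plus strand) for Sstr2.
Trh: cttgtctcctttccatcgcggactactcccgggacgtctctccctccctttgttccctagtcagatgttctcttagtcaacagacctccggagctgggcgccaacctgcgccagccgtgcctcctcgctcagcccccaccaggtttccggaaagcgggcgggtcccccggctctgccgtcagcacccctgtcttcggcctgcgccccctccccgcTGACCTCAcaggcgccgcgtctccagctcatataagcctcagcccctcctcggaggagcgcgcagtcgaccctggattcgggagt
Sst: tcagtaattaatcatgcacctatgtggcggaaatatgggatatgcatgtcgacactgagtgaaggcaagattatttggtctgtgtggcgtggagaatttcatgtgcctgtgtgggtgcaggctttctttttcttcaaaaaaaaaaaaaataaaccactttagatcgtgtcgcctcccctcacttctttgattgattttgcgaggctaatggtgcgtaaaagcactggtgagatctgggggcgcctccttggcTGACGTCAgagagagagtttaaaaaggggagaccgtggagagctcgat
Sstr2: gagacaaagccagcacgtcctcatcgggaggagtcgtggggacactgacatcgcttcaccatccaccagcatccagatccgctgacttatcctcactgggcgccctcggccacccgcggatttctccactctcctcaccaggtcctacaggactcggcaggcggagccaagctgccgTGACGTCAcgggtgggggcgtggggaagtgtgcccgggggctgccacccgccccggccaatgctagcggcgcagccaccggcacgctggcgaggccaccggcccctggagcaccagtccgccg

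The other pairs did not pass the adjusted threshold. Of the 36 coefficients 27 were above 0, and 10 had an unadjusted permutation p under 0.05. Trh and Ghrh had r = 0.66 (permutation p = 0.0208, adjusted p = 0.150). Among receptors, r was 0.68 between Sstr1 and Sstr3 (adjusted p = 0.150 by permutation) and 0.67 between Sstr2 and Ghr (adjusted p = 0.150). Gnrh1 and Sstr4 had r = -0.57 (adjusted p = 0.171 by permutation). For Sstr1 and Ghr, r was 0.62 over the 13 rats (adjusted p = 0.171 by permutation), with -0.03 within the 6 fructose rats and 0.97 within the 7 chow rats, and 0.11 without chow replicates 1 and 7. The difference between those diets' coefficients was not tested.

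**Figure D4:**
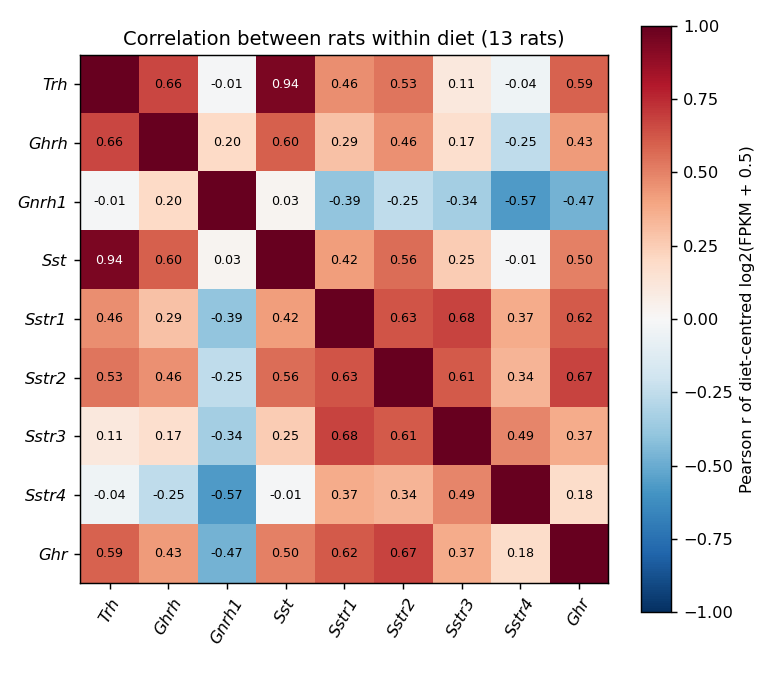
Pearson r between each pair of the 9 genes over the 13 rats, on log2(FPKM + 0.5) with each diet's mean subtracted. The cell of Trh and Sst, at 0.94, is the 1 pair that passed after adjustment over 36 pairs.

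Sstr3, a receptor known for its place on neuronal primary cilia, came nearest to a difference between diets. It was at 5.10, 4.52, 4.75, 6.11, 5.52 and 6.25 FPKM in fructose rats, against 5.55, 4.08, 4.37, 4.27, 4.95, 4.79 and 3.80 FPKM in chow rats. Fructose replicates 4 and 6 were above every chow rat, and 5 of 6 fructose rats were above the chow mean. Sstr3 averaged 5.38 ± 0.711 FPKM in fructose rats (SD, n = 6) and 4.54 ± 0.594 FPKM in chow rats (SD, n = 7). The log2 difference was 0.22 ± 0.10 (SE, 95% interval 0.01 to 0.43). Its p was 0.0422 in limma and 0.0431 in the exact permutation test, with adjusted p of 0.240 and 0.248, so that it did not pass.

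Sstr1, a receptor found in the hypothalamus both on target neurons and on somatostatin neurons, was at 7.87, 6.63, 6.30, 8.18, 6.78 and 8.72 FPKM in fructose rats, against 10.2, 6.63, 7.03, 6.92, 5.46, 6.35 and 4.95 FPKM in chow rats. Chow replicate 1 was the highest and chow replicate 7 the lowest of the 13, and the fructose rats lay between. Means were 7.41 ± 0.978 FPKM in fructose rats (SD, n = 6) and 6.79 ± 1.69 FPKM in chow rats (SD, n = 7). This came to a log2 difference of 0.14 ± 0.13 (SE, 95% interval -0.14 to 0.42, adjusted p = 0.639 in limma, exact permutation p = 0.364). Without chow replicate 1 it was 0.24, with an unadjusted p of 0.0397 and an adjusted p of 0.199 in limma.

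Sstr2, a widely expressed receptor and the target of the somatostatin analogue octreotide, was at 5.89, 5.69, 7.16, 7.78, 5.68 and 7.27 FPKM in fructose rats, against 7.998, 5.77, 6.97, 6.97, 5.95, 7.40 and 5.95 FPKM in chow rats. The diets covered nearly the same range. Means were 6.58 ± 0.931 FPKM in fructose rats (SD, n = 6) and 6.72 ± 0.845 FPKM in chow rats (SD, n = 7). Between diets the log2 difference was -0.03 ± 0.10 (SE), with a 95% interval of -0.24 to 0.18 (adjusted p = 0.913 in limma, exact permutation p = 0.752).

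Sstr4, the least abundant of the 4 receptors here, was at 2.28, 1.00, 1.36, 1.53, 1.20 and 2.34 FPKM in fructose rats, against 1.77, 0.716, 1.68, 0.933, 1.51, 1.12 and 1.51 FPKM in chow rats. Fructose replicates 1 and 6 were above every chow rat and the other 4 fructose rats were not. Means were 1.62 ± 0.565 FPKM in fructose rats (SD, n = 6) and 1.32 ± 0.400 FPKM in chow rats (SD, n = 7). Fructose minus chow, the log2 difference was 0.21 ± 0.19 (SE, 95% interval -0.19 to 0.61, adjusted p = 0.605 in limma, exact permutation p = 0.307). Sstr5, the remaining receptor gene of the family, was under the filter, at 0.225 to 0.539 FPKM in fructose rats and 0.236 to 0.942 FPKM in chow rats, and was not tested. Cort, which codes for cortistatin, a peptide that binds the same receptors, was listed at 0 in 4 of 6 fructose rats and 2 of 7 chow rats.

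Ghr codes for the receptor through which growth hormone acts on target tissues and feeds back on the hypothalamus. It was at 2.89, 4.06, 4.61, 3.54, 2.92 and 4.73 FPKM in fructose rats, against 5.37, 3.25, 3.86, 3.78, 3.25, 3.29 and 2.75 FPKM in chow rats. Fructose rats all lay between the lowest chow rat, replicate 7, and the highest, replicate 1. Means were 3.79 ± 0.807 FPKM in fructose rats (SD, n = 6) and 3.65 ± 0.842 FPKM in chow rats (SD, n = 7). Its log2 difference was 0.05 ± 0.14 (SE, 95% interval -0.26 to 0.35, adjusted p = 0.898 in limma, exact permutation p = 0.748).

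For the receptors and the remaining factors, the genes most alike over the 13 rats by the same measure were of varied kinds. Sstr4 was most like Aqp4, the water channel of astrocytes (r = 0.92), and Prkca, a protein kinase C (r = 0.89). Sstr1 was most like Emc1 (r = 0.94) and Adcy7, an adenylyl cyclase (r = 0.93), and Sstr2 most like Cldn9, a claudin, and Tle2, a transcriptional corepressor (r = 0.92 each). Sstr3 was most like Apoc1, an apolipoprotein (r = 0.90), and Adra2c, an adrenergic receptor (r = 0.85), and Ghr most like Aifm2 (r = 0.94) and Gjd2, a neuronal gap junction protein (r = 0.93). Ghrh was most like Oaf (r = 0.95) and Gckr, the glucokinase regulator (r = 0.88), and Gnrh1 most like Icam2 and Foxs1 (r = 0.92 each). Of these genes Aqp4 rose on fructose, by 0.27 ± 0.06 (SE) on the log2 scale (adjusted p = 0.0276 in limma), and so did Tle2, by 0.49 ± 0.09 (adjusted p = 0.0151 in limma).

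Genes that act around these peptides and receptors were counted in 6 lists holding 70 genes, of which 62 were tested. In limma 1 rose, 4 fell and 57 did not pass, which is 8.06% of those tested beside 3.94% of all genes tested. The median log2 difference of the 62 was 0.04, beside 0.00085 over all genes tested. By list, 1 rose and 1 fell of 8 tested in the growth hormone axis, 1 fell of 14 in the TRH axis, and 2 fell of 12 among the effectors of somatostatin receptors. In the GnRH axis 0 of 9, among neuroendocrine transcription factors 0 of 11 and among genes of somatostatin interneurons 0 of 8 were called. At an unadjusted p under 0.05 in limma these lists held 1, 3 and 3 genes, beside 19.2% of all genes tested.

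**Figure D5:**
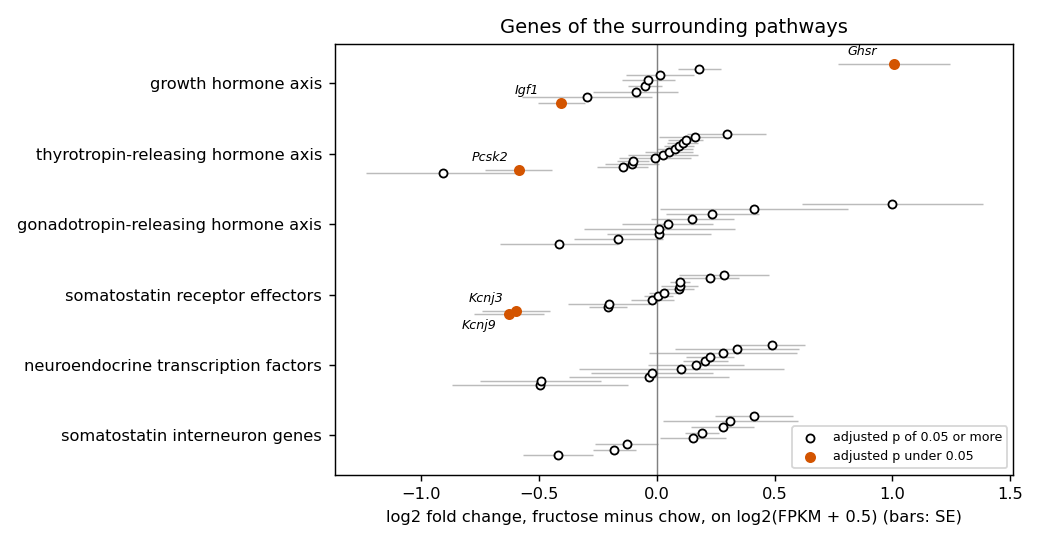
Log2 difference between diets, fructose minus chow, on log2(FPKM + 0.5) for each of the 62 tested genes of the 6 lists, with SE bars from limma. The filled points are the 5 genes called, with Ghsr to the right at 1.01 and Igf1, Pcsk2, Kcnj3 and Kcnj9 to the left.

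In the growth hormone axis, Ghsr, the receptor of ghrelin and a stimulator of growth hormone release, rose. It was at 3.03, 1.71, 2.81, 4.61, 1.95 and 4.43 FPKM in fructose rats, against 1.89, 0.750, 2.20, 1.34, 1.15, 0.867 and 0.723 FPKM in chow rats. All 6 fructose rats were above the chow mean and 4 were above every chow rat. Ghsr averaged 3.09 ± 1.22 FPKM in fructose rats (SD, n = 6) and 1.27 ± 0.577 FPKM in chow rats (SD, n = 7), a log2 difference of 1.01 ± 0.24 (SE, adjusted p = 0.0346 in limma). Igf1, the insulin-like growth factor that growth hormone induces in many tissues, fell, with 2.53 ± 0.293 FPKM in fructose rats (SD, n = 6) and 3.52 ± 0.509 FPKM in chow rats (SD, n = 7). Its log2 difference was -0.41 ± 0.10 (SE, adjusted p = 0.0394 in limma), and 5 of 6 fructose rats were below every chow rat. Ghrhr, the receptor of GHRH, was listed at 0 in 4 of 6 fructose rats and 2 of 7 chow rats and was not tested.

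Around TRH, Pcsk2, a prohormone convertase that cuts pro-TRH and many other precursors, fell. It averaged 85.01 ± 13.8 FPKM in fructose rats (SD, n = 6) and 130 ± 31.8 FPKM in chow rats (SD, n = 7), a log2 difference of -0.59 ± 0.14 (SE, adjusted p = 0.0389 in limma), and 5 of 6 fructose rats were below every chow rat. Pcsk1, Cpe and Pam, other enzymes of peptide processing in that list, did not pass. Their log2 differences were -0.15, -0.10 and 0.08, with adjusted p of 0.517, 0.446 and 0.643 in limma. The receptor Trhr was at 4.43 ± 0.702 FPKM in fructose rats (SD, n = 6) and 4.42 ± 1.19 FPKM in chow rats (SD, n = 7), and did not pass (log2 difference 0.03 ± 0.15, SE, adjusted p = 0.953 in limma). The TRH-degrading enzyme Trhde averaged 2.49 ± 0.188 FPKM in fructose rats and 2.75 ± 0.599 FPKM in chow rats (SD, adjusted p = 0.691 in limma). Pgpep1, a peptidase that removes the same N-terminal residue, averaged 10.96 ± 1.80 FPKM in fructose rats and 10.5 ± 1.24 FPKM in chow rats (SD, adjusted p = 0.840 in limma). Qpct, which closes that residue into a ring and is listed under an older symbol, averaged 19.2 ± 3.41 FPKM in fructose rats and 17.3 ± 4.46 FPKM in chow rats (SD, adjusted p = 0.627 in limma).

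Around GnRH, Kiss1, whose peptide excites GnRH neurons, did not pass. It was at 0, 1.47, 0.664, 3.00, 0.630 and 1.17 FPKM in fructose rats, against 0.613, 0, 0, 0.534, 0.659, 0 and 0 FPKM in chow rats. So 1 of 6 fructose rats and 4 of 7 chow rats were listed at 0, and 4 fructose rats were above every chow rat. Of these, fructose replicate 3 was only just above chow replicate 5, at 0.664 against 0.659 FPKM. For Kiss1 the adjusted p was 0.166 in limma, and the exact permutation p was 0.0507 unadjusted. Gnrhr, the pituitary receptor of GnRH, was listed at 0 in 4 of 6 fructose rats and 6 of 7 chow rats.

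Below the somatostatin receptors, the potassium channel genes Kcnj3 (GIRK1) and Kcnj9 (GIRK3) fell. Kcnj3 was at 14.6, 7.18, 13.98, 12.3, 14.3 and 13.8 FPKM in fructose rats, against 16.1, 25.0, 20.04, 18.1, 19.8, 17.0 and 18.0 FPKM in chow rats. Every fructose rat was below every chow rat. Kcnj3 averaged 12.7 ± 2.81 FPKM in fructose rats (SD, n = 6) and 19.1 ± 2.95 FPKM in chow rats (SD, n = 7), a log2 difference of -0.60 ± 0.15 (SE, adjusted p = 0.0383 in limma). Kcnj9 averaged 37.9 ± 7.30 FPKM in fructose rats (SD, n = 6) and 59.2 ± 12.9 FPKM in chow rats (SD, n = 7), a log2 difference of -0.63 ± 0.15 (SE, adjusted p = 0.0353 in limma). The other GIRK genes of the list did not pass. Kcnj6 (GIRK2) averaged 7.80 ± 1.20 FPKM in fructose rats and 7.85 ± 0.537 FPKM in chow rats (SD, log2 difference -0.02, adjusted p = 0.939 in limma). Kcnj5 (GIRK4) averaged 1.76 ± 0.529 FPKM in fructose rats and 1.37 ± 0.499 FPKM in chow rats (SD, log2 difference 0.28, adjusted p = 0.453 in limma). Such channels also serve many other Gi-coupled receptors.

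Each of these 5 calls was lost on leaving out 1 or another of several rats. In limma 0 of the 5 genes passed without fructose replicate 4 or 6 or chow replicate 2, 4, 5 or 7. Calls also became fewer over all genes in those fits, at 83 to 187 beside 466 with all rats. Without chow replicate 3, 1 of the 5 passed (Ghsr), without fructose replicate 2 there were 2 (Ghsr and Kcnj3), and without fructose replicate 3 there were 3 (Pcsk2, Kcnj3 and Kcnj9). By the exact permutation test 13 of the 62 genes had an unadjusted p under 0.05, beside 18.8% of all genes tested. With each rat left out in turn, the adjusted p in limma reached at most 0.0884 for Ghsr, 0.0967 for Igf1, 0.0911 for Pcsk2, 0.0838 for Kcnj3 and 0.0875 for Kcnj9, and no log2 difference changed sign.

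Markers of tissue around the hypothalamus moved with diet in the same libraries, and their part in these calls was not tested. Of 6 tested markers of midbrain dopamine neurons, 6 rose, with summed levels of 170.2 to 493 FPKM in fructose rats and 62.7 to 89.7 FPKM in chow rats. Of 8 thalamus markers 5 fell, with sums of 62.6 to 393 FPKM in fructose rats and 196 to 800 FPKM in chow rats. Tnnt1 of that list lay the other way, at 8.07 ± 4.95 FPKM in fructose rats and 3.91 ± 2.11 FPKM in chow rats (SD, adjusted p = 0.174 in limma), and did not pass. Blood cell markers rose in 4 of 4 tested genes, with sums of 494 to 2215 FPKM in fructose rats and 238 to 615 FPKM in chow rats. Meninges markers rose in 4 of 5, with sums of 30.5 to 80.9 FPKM in fructose rats and 21.0 to 33.8 FPKM in chow rats, and Col1a2 was listed at 0 in all rats. Of the striatum and the cortex and hippocampus lists 1 gene each rose, Ppp1r1b of 6 tested and Nrgn of 4 tested. In the same lists Drd1 had a log2 difference of -0.47 (adjusted p = 0.127 in limma) and Slc17a7 of -1.38 (adjusted p = 0.118 in limma), and neither passed. Of the remaining lists, 0 of 2 choroid plexus and 0 of 3 tanycyte and ependyma genes were called in limma. At an unadjusted p under 0.05 there were 1 and 2, beside 19.2% of all genes tested.

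Markers of the hypothalamus itself were present. All 10 were tested and 0 were called in limma. Those 2 at an unadjusted p under 0.05, beside 19.2% of all genes tested, went opposite ways. Their log2 differences were -0.71 for Pmch (adjusted p = 0.197 in limma) and 0.84 for Hdc (adjusted p = 0.146 in limma). The sums were 1580 to 6929 FPKM in fructose rats and 4081 to 9414 FPKM in chow rats. They were mostly Pmch, at 1345 to 5669 FPKM in fructose rats and 3607 to 7136 FPKM in chow rats, and do not describe the other markers. Agrp, a peptide of arcuate neurons, was listed at 0 in 1 fructose rat. Of 8 markers of the anterior pituitary, Prl, Fshb and Pou1f1 were listed at 0 in all 13 rats. Tshb, Lhb, Cga and Tbx19 were tested and 0 were called in limma. The list summed to 3.96 to 20.9 FPKM in fructose rats and 3.12 to 11.2 FPKM in chow rats. Fructose replicate 4 was the highest rat for Tshb, at 7.42 FPKM, and for Cga, at 6.59 FPKM. Npy, another peptide of arcuate neurons, was listed at 0 in all 13 rats, so that a listed 0 cannot be read as absence in this table. Total FPKM per rat was 556902 to 608058, with 13156 to 13384 rows above 0.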

How the data were processed

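RNA of the whole hypothalamus of 6 fructose and 7 chow rats was deposited by the authors as 1 table of FPKM values, 1 column for each rat. The submitters' processing notes name STAR 2.3.0e, Cufflinks 2.1.1, Cuffdiff and rat build rn5. The sources used here do not give the tools' settings or any scaling across libraries. Each library took 1 µg of total RNA, per the labels' protocols. Read counts are not used here and depth is unknown, so precision rests on the spread between rats. The rats are separate animals housed in pairs, and p-values take them as independent.

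Values were analysed as log2(FPKM + 0.5), which shrinks the ratio between low values, while a difference of means over rats that include a 0 can move either way. Rows with a mean of at least 0.5 FPKM were tested (11837) with limma 3.58.1 in R 4.3.3, with a mean-variance trend, two-sided, and Benjamini-Hochberg adjustment over all of them. Single genes were also tested by an exact two-sided permutation of the difference of means over 1716 splits of the rats. Correlations used diet-centred values, 100000 permutations within diets and adjustment over 36 pairs. The procedure was tested on simulated data.

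The genes and lists were chosen with earlier results of these data known. The genes named are the 9 genes, each listed gene that passed, listed ligands, receptors and enzymes that act directly on the 9 genes' peptides, and for each of the 9 the 2 genes most alike across rats. Predicted and joined symbols were passed over in that choice. Trhr2, Kcnj5, Kcnj6, Tnnt1, Drd1 and Slc17a7 were named after their values were seen. So were Isl1, Pmch, Hdc, Tshb, Lhb, Cga, Tbx19, Pcsk1, Cpe and Pam. Each alternative changed 1 choice, among them pseudocounts of 0.1 and 1, no filter, a minimum mean of 2 FPKM, quantile and median-ratio scaling, array weights, robust moderation, the exact permutation test, an adjusted p under 0.1 and leaving out each rat. Correlations that leave out each rat were added after seeing the data. Replicate numbers follow accession order and only name a rat.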

Additional observations from a re-analysis of the deposited data

Results flagged for a closer look

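Within a diet, 3 values stood far from the other rats by Dixon's criterion, of 32 groups looked at, and chance marks about 1 group in 20. Sstr1 was highest in chow replicate 1, at 10.2 FPKM, with a gap to the next chow rat of 0.604 of the range. Ghr was also highest in chow replicate 1, at 5.37 FPKM, with a gap of 0.576 of the range. Kcnj3 was lowest in fructose replicate 2, at 7.18 FPKM, with a gap of 0.681 of the range.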

How the results depend on the processing

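Of the 9 genes 0 were called in limma under any alternative, with 0 to 2 at an unadjusted p under 0.05. A minimum mean of 2 FPKM left 7 of them tested. Directions turned, with no call, for Gnrh1 at a pseudocount of 0.1 (0.042), Sstr2 with array weights (0.039) and Ghr with quantile normalization (-0.0048). With each rat left out, log2 differences ranged from -0.089 to 0.68 for Ghrh, -0.33 to 0.054 for Gnrh1, -0.077 to 0.011 for Sstr2 and -0.012 to 0.14 for Ghr, and kept their sign for the other 5 genes. The count of all genes called, 466, was 1019 with array weights, 308 with no filter, 915 at an adjusted p under 0.1 and 83 to 859 with each rat left out. The 5 calls among listed genes came to 2 with no filter, and between 0 and 7 listed genes were called with each rat left out. The adjusted exact permutation test gave 0 in each case. At an unadjusted p under 0.05 it gave 2223 of all genes tested (18.8%) and 13 of the 62 listed genes tested. That 0 is bounded by the number of splits, since its lowest adjusted p was 0.0663, and says nothing about stability. Of 36 correlations 0 passed without the 2 rats farthest from the median, and 1 passed with any single rat left out. The cause of the other shifts was not tested. No paired analysis was possible because the replicate numbers follow accession order and pair no rats. The number of rats limits the precision, and Ghrh and Gnrh1 rest on low values.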

Other observations

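Trhr2, the second TRH receptor gene of rodents, was lower in fructose rats than the chow mean in 6 of 6 rats without passing the test. It was at 5.97, 2.37, 5.97, 1.70, 4.43 and 3.39 FPKM in fructose rats, against 3.05, 8.22, 9.47, 8.41, 11.9, 3.83 and 11.3 FPKM in chow rats. Fructose replicates 2 and 4 were below every chow rat, and chow replicates 1 and 6 lay within the range of the fructose rats. The log2 difference was -0.91 ± 0.33 (SE, adjusted p = 0.134 in limma, exact permutation p = 0.0373 unadjusted). The gene was singled out from its list after its values were seen. Trhr, the other TRH receptor, had means of 4.43 FPKM in fructose rats and 4.42 FPKM in chow rats, and a difference between the receptors' responses was not tested.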
